A study of Mus musculus with 3 samples.

Results

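Prox1, Lyve1, Pdpn, Mmrn1, Reln and Sema3d, 6 genes that mark the endothelium of lymphatic vessels, were followed in RNA bound to tagged endothelial ribosomes of mouse hearts. They were taken by name from a table of 17583 genes, and all 6 were listed. Flt4, the receptor for VEGF-C, was not a member and serves only for comparison. The RNA came from 3 EC-RiboTag mice (genotype Cdh5-CreERT2;Rpl22tm1.1Psam), in which tamoxifen-induced Cre in Cdh5-expressing cells adds a hemagglutinin tag to the ribosomal protein Rpl22, and tagged ribosomes were immunoprecipitated from homogenized hearts. The Cdh5 promoter is active in blood vessels, lymphatic vessels and endocardium alike, so the precipitate mixes these beds. All 3 libraries share 1 condition. The labels place the hearts on day 7 after ligation of a coronary artery, the RiboTag methods mention no infarction, and the labels do not spell out the Rz of the sample titles. The study abbreviates the remote zone as RZ where it describes another measurement on EC-RiboTag hearts after infarction, and whether these libraries come from that zone was not settled here. The labels give no age, strain or sex. No input or control library was analysed here, so every value is a level within the precipitate. The number of lymphatic cells, their RNA per cell and RNA from other cell types cannot be told apart.

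Lymphatic vessels drain fluid and immune cells from the heart. PROX1, a homeobox transcription factor, sets and keeps the identity of their endothelium, in part by sustaining Flt4, and it acts together with SOX18 and NR2F2. LYVE1 is a hyaluronan receptor on the surface of capillary lymphatics and also of some resident macrophages. Podoplanin (Pdpn) is a mucin-type surface glycoprotein that binds CLEC-2 on platelets and is also made by fibroblasts and mesothelium. Multimerin-1 (Mmrn1), reelin (Reln) and semaphorin 3D (Sema3d) are secreted.

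The files give a normalized count per gene and mouse, which is a read count divided by a factor for the depth of the library and rounded to a whole number by the authors. These counts summed to between 7149102 and 7268785 per library, and the steps that rounding leaves among low values correspond to about 6753000 to 7564000 reads. The 12 pan-endothelial markers were present at 690 ± 13.4 normalized counts per kb of canonical transcript (mean and SD over 3 mice of the list median), whereas the 10 cardiomyocyte markers stood at 565 ± 18.9, so the precipitate also held transcripts of another cell type. Duplicates were removed from these single-end reads, which compresses high values, so both medians together do not measure how much RNA each cell type gave. The paper compared Cdh5, Pecam1 and Myh6, among other markers, between precipitate and input by qRT-PCR, which was not analysed here. Mouse 1 stood apart in sex-linked genes, with Xist at 4 normalized counts against 618 in mouse 2 and 869 in mouse 3, and Ddx3y at 1080 against 3 and 1. The 3 mice are biological replicates by their labels, and all errors below are the spread between them.

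RefSeq promoter sequences on GRCm38.p6 were matched by symbol for 5 of the 6 genes, all but Lyve1, with 2 start sites for Prox1. Windows of 250 bases before the start are shown for 4 genes, to let their base composition and motif matches be compared. Capitals mark matches, on either strand, to one of 5 motifs searched.
Prox1, chr1:190170828-190171077, minus strand: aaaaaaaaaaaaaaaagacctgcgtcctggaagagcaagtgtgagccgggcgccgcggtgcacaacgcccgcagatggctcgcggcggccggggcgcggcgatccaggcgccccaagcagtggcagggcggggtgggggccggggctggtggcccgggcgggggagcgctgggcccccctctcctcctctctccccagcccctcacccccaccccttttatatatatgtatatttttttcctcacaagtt
Pdpn, chr4:143299565-143299814, minus strand: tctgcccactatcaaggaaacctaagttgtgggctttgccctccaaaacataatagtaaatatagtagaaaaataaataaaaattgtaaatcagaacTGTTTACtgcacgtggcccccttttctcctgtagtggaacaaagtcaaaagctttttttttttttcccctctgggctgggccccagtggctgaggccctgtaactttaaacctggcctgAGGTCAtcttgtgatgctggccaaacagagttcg
Mmrn1, chr6:60944067-60944316, plus strand: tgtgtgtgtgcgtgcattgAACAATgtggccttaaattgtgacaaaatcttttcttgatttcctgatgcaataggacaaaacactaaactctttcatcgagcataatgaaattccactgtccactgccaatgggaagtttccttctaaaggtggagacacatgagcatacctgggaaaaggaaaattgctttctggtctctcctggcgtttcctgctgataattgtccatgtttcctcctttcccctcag
Reln, chr5:22344706-22344955, minus strand: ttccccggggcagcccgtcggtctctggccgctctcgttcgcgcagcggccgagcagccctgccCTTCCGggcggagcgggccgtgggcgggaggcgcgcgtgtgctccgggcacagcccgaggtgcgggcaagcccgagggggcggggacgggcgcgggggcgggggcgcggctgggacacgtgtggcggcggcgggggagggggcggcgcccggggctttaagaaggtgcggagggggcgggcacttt
The motifs were AACAAT for SOX factors, AGATAA for the GATA factors, CGGAAG for ETS factors, AGGTCA for half-sites of NR2F receptors and GTAAACA for forkhead factors, each with its reverse complement, and no 2 matches shown overlap. GC content ran from 42.4% in Mmrn1 and 43.2% in Pdpn through 64.8% in this Prox1 window to 80.0% in Reln, against a median of 52.4% over 32851 promoter windows. The Mmrn1 window held 1 SOX match, a motif present in 9.42% of all windows. The Pdpn window held 1 forkhead match (3.17% of all windows) and 1 NR2F half-site (14.0%). The Reln window held 1 ETS match (13.6%). The GATA motif, found in 9.99% of all windows, occurred in none of the windows of these 5 genes. Neither Prox1 window and no part of the Sema3d window held any of the 5 motifs. These are letter matches only, and no binding was measured. Whether these RefSeq starts, the Mmrn1 start included, are the ones used in these hearts was not tested. The Mmrn1 window ends in a pyrimidine-rich run and cag, as an intron does before an exon. Its start may lie inside the gene, so its GC content and SOX match may not describe a promoter.

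Prox1 (ENSMUSG00000010175) is annotated on GRCm39 at chr1:189850232-189902911, minus strand. Its 3 libraries gave 349, 554 and 550 normalized counts for mice 1, 2 and 3, with a mean of 484.3 ± 117 (SD, n = 3). Mouse 1 was the low value, and the other 2 mice were almost equal. The SD was 5.32 times that expected from counting reads alone, and for the other 5 genes it was 3.70 to 7.14 times.

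Lyve1 (ENSMUSG00000030787; minus strand, chr7:110449814-110462446) gave 645, 758 and 1023 normalized counts, a mean of 808.7 ± 194 (SD, n = 3). Pdpn (ENSMUSG00000028583; minus strand, chr4:142994001-143026134) had 193, 312 and 264, a mean of 256.3 ± 59.9 (SD, n = 3). Both surface glycoproteins were lowest in mouse 1, but Lyve1 was highest in mouse 3 and Pdpn in mouse 2.

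Among the secreted proteins, Mmrn1 (ENSMUSG00000054641; plus strand, chr6:60901960-60966362), a large adhesive protein of endothelium and platelets, had 482, 674 and 851 normalized counts, a mean of 669 ± 185 (SD, n = 3). Reln (ENSMUSG00000042453; minus strand, chr5:22089452-22549700), an extracellular glycoprotein with 64 exons in its canonical transcript, had 423, 465 and 581, a mean of 489.7 ± 81.8 (SD, n = 3). Sema3d (ENSMUSG00000040254; plus strand, chr5:12433352-12638915), a guidance cue that signals through neuropilins and plexins, had 175, 373 and 369, a mean of 305.7 ± 113 (SD, n = 3). Sema3d had the widest spread of the 6 genes, with a coefficient of variation of 37.0%, and Reln the narrowest, with 16.7%. At the read length of 72 bases, no window of the canonical transcript had an exact copy elsewhere in the genome for 5 of these genes, and 2 of 4846 windows did for Pdpn. No exonic base of the 6 genes was shared with another gene on the same strand, so loss of multi-mapping or shared reads touched these counts little.

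**Figure D1:**
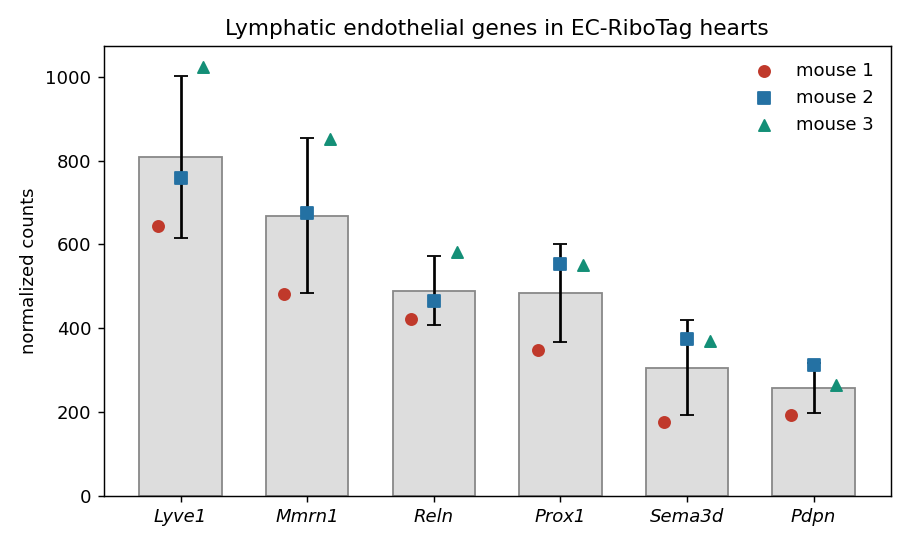
Normalized counts of the 6 lymphatic genes on a linear axis from 0, with bars for the mean, error bars for the SD and symbols for the 3 mice. Mouse 1 is the lowest of the 3 for every gene, from 175 (Sema3d) to 645 (Lyve1), while mouse 2 or mouse 3 is the highest.

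Because longer transcripts collect more reads, levels were compared between genes only per kb of canonical transcript. Lyve1, with a transcript of 4136 bases, was highest at 196 ± 46.9 normalized counts per kb (SD, n = 3), followed by Mmrn1 at 149 ± 41.2. The other 4 genes lay close together. Prox1 had 59.0 ± 14.3 normalized counts per kb, Pdpn 52.1 ± 12.2, Sema3d 46.7 ± 17.3 and Reln 41.9 ± 7.0. Neighbours among these 4 genes differed by less than their SDs, and Lyve1 and Mmrn1 by less than the larger of theirs, whereas Mmrn1 exceeded Prox1 by more than either SD. Within single mice the order was steadier than the means and SDs show, because the genes varied together. Of the 15 pairs, 13 kept their direction in all 3 mice, and the pairs that did not were Sema3d with Pdpn and Sema3d with Reln. The log2 ratio of Lyve1 to Mmrn1 was 0.53, 0.28 and 0.38 in mice 1, 2 and 3, a 1.32-fold difference. The log2 ratio of Mmrn1 to Prox1 was 1.33 ± 0.17 (SD, n = 3), or 2.52-fold. No pair can pass 0.05, since the smallest two-sided p of the exact sign-flip permutation test over 3 mice is 0.25, and adjusted over the 15 pairs these 13 had p = 0.288. Division by the length of all annotated exons turned the order of none of the pairs, although Reln, whose annotated exons span 23738 bases, dropped to 20.6 normalized counts per kb.

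Per kb of canonical transcript, all 6 genes were well below the pan-endothelial markers. By the length of all annotated exons, Lyve1, at 194 normalized counts per kb, was above the markers Emcn (183) and Egfl7 (131). Its log2 ratio to the marker median was then -1.0 in place of -1.85. Because duplicates were removed from single-end reads, a transcript can keep about 1 read per start position. The 12 markers, at 461 to 809 normalized counts per kb, come nearer to this limit than the 6 genes, so the ratios below describe the deposited values and may understate the gap in RNA. At least 10 normalized counts in each mouse were present for 6 of 6, against 78.7% of all genes listed. Relative to the median of the 12 endothelial markers in the same mouse, the level per kb of Lyve1 was lower by a log2 ratio of -1.85 ± 0.37 (SD, n = 3), which is 27.8% of that median. Mmrn1 had a log2 ratio of -2.24 ± 0.44, or 21.1%. Prox1 reached 8.37% of the endothelial median, Pdpn 7.43%, Sema3d 6.4% and Reln 6.02%. Flt4 stood above all 6 with 37.6%, at 262 ± 40.1 normalized counts per kb. Each gene was below the endothelial median in 3 of 3 mice (exact sign-flip permutation test, two-sided p = 0.25, the smallest possible). Among the 13801 genes ranked per kb, Lyve1 took place 4254, Mmrn1 5628, Prox1 9451 and Reln 10418, so that Lyve1 and Mmrn1 were above the median gene, at 114 normalized counts per kb, and the other 4 below it.

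**Figure D2:**
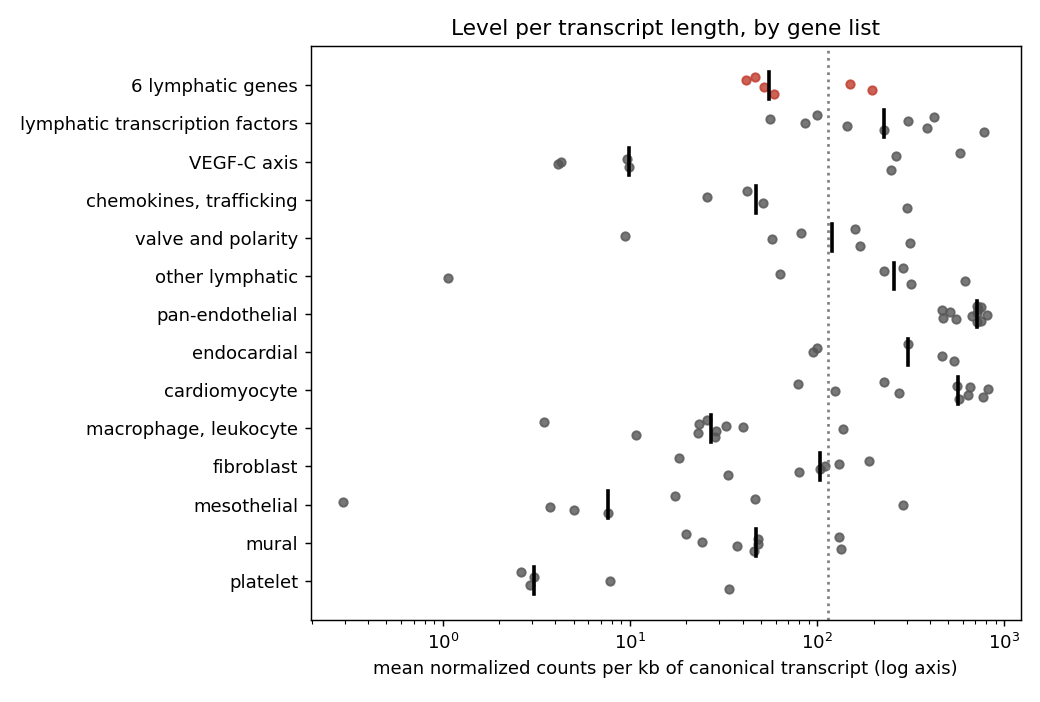
Mean normalized counts per kb of canonical transcript on a log axis, 1 point per gene, with a black bar at the median of each gene list and a dotted line at the median of all ranked genes (114). The 6 lymphatic genes (red) range from 41.9 (Reln) to 196 (Lyve1), all below the whole pan-endothelial list.

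The lymphatic genes varied between mice together, and more than most genes. The 6 genes together summed to 2267, 3136 and 3638 normalized counts in mice 1, 2 and 3. The highest mouse had at least 1.5 times the lowest for 5 of the 6 genes, all but Reln, whose ratio was 1.37. With a floor of 50 on the mean normalized count, the same rule called 13.8% of 11956 genes. With a floor of 200, which all 6 genes pass, it called 7.19% of 9358. The ratio was 1.59 for Prox1, 1.59 for Lyve1, 1.62 for Pdpn, 1.77 for Mmrn1 and 2.13 for Sema3d, against a median of 1.18 over the 11956 genes. Mouse 1 was the lowest for 6 of 6, a feature noticed in the values, against 33.2% of all genes. Without mouse 1 the rule called 0 of the 6 genes and 4.3% of all genes, and the ratio of mouse 3 to mouse 2 was 0.993 for Prox1, 0.989 for Sema3d, 0.846 for Pdpn, 1.25 for Reln, 1.26 for Mmrn1 and 1.35 for Lyve1. The log2 level in mouse 1 minus the mean of the other mice was -1.08 for Sema3d, -0.66 for Prox1, -0.65 for Mmrn1, -0.57 for Pdpn, -0.45 for Lyve1 and -0.30 for Reln. Over all genes this difference had a median of 0.01, with a 5th percentile of -0.64. The shares of Lyve1 and Prox1 in the group moved less than its level, and those of Pdpn and Sema3d moved more than theirs. Lyve1 made up 38.2%, 32.6% and 37.2% of the summed levels per kb in mice 1, 2 and 3, and Prox1 10.4%, 12.0% and 10.1%. Pdpn made up 9.61%, 11.3% and 8.08%, and Sema3d 6.55%, 10.1% and 8.48%.

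The pan-endothelial markers differed less between mice in the deposited values. Their summed normalized counts were 28759, 27701 and 27593 in mice 1, 2 and 3, a spread of 1.04-fold, and 0 of 12 were called by the 1.5-fold rule. Cdh5, the cadherin whose promoter drives the Cre, had 2808, 2860 and 2930 normalized counts. Pecam1, an adhesion molecule of all endothelium, had 2722, 2847 and 2668. Mouse 1 was the lowest for 2 of the 12, Cdh5 and Eng, the latter by 1.01-fold. The part of duplicate removal in this small spread was not tested.

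Other genes of lymphatic endothelium were read from 5 further lists, which named 33 genes, of which 32 were in the table and Ccl21b was not. Of these, 28 had a mean of at least 50 and 16 of the 28 (57.1%) were lowest in mouse 1. The 1.5-fold rule called 10 of the 28 (35.7%), against 13.8% of all genes. Some of the 28, such as Tbx1 (mean 140.7) and Svep1 (112), had means under 200, where genes are called more often. At a floor of 200 the share was 7.19% of all genes. A share matched for level was not taken. Among transcription factors, Tbx1, a T-box factor needed for lymphatic growth, had 76, 166 and 180 normalized counts in mice 1, 2 and 3, and Maf had 272, 447 and 477. Foxc2, a forkhead factor of lymphatic valves, had 173, 194 and 338. Foxc1 was also called by the 1.5-fold rule, but with 824, 633 and 1073 it was lowest in mouse 2. Both PROX1 partners varied by 1.09-fold only. Sox18 had 1292, 1306 and 1193 and Nr2f2 had 999, 965 and 919, and Gata2 and Hhex were both highest in mouse 1.

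In the VEGF-C axis, the receptor Flt4 had 1396, 1628 and 1898 normalized counts, with mouse 1 the lowest. Its co-receptor Nrp2 had 3636, 4063 and 3993. The ligand Vegfc went the other way, with 806, 633 and 661, and Vegfd stayed between 18 and 24. Svep1, an extracellular protein required for lymphatic growth, had 61, 137 and 138, and it was the 1 gene of the 4 with a mean of at least 50 that the rule called. Ccbe1, with 18, 31 and 32, and Adamts3, with 21, 34 and 35, which together process VEGF-C, were under the floor of 50.

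In the remaining lymphatic lists, the 1.5-fold rule called 2 of 4 chemokine and trafficking genes, 1 of 6 valve and polarity genes and 2 of 5 other genes above the floor of 50. Ackr2, a scavenging chemokine receptor, had 108, 276 and 255 normalized counts in mice 1, 2 and 3. Celsr1, a planar polarity cadherin that acts in lymphatic valves, had 44, 123 and 154. Clca3a1, an antigen of mouse lymphatic endothelium, had 122, 249 and 298. In each of these 3 genes, both other mice had at least 2 times the value of mouse 1. Not every lymphatic gene did so. Ccl21a, the chemokine that draws dendritic cells into lymphatics, had 251, 271 and 254, the polarity gene Vangl2 was highest in mouse 1 with 522, 473 and 414, Fat4 had 898, 880 and 989, Ackr4 was lowest in mouse 2 with 79 against 107 and 211, and Fxyd6 and Klhl4 varied by 1.04-fold and 1.09-fold.

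**Figure D3:**
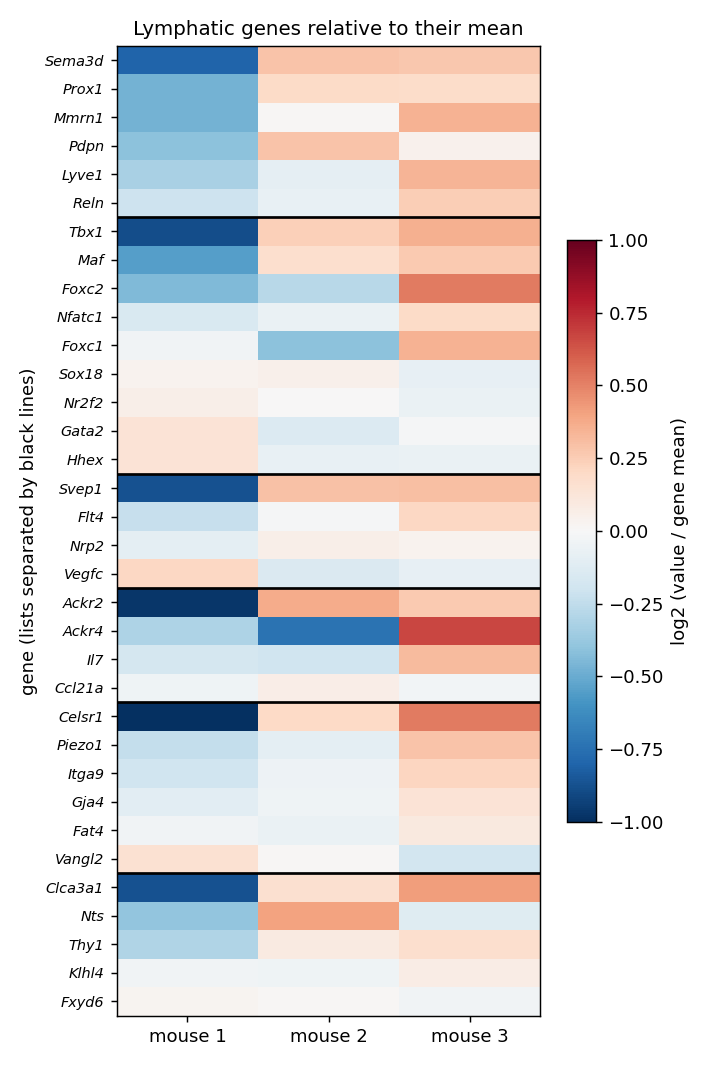
Heat map of the 6 lymphatic genes (top block) and the 28 other lymphatic genes with a mean of at least 50, as log2 of the value over the mean of the gene in each of the 3 mice, with the colour scale ending at 1 in either direction. The blue cells of the 6 genes are all in mouse 1 except paler ones of Lyve1 and Reln in mouse 2, and the strongest are Sema3d, Tbx1, Svep1, Ackr2, Celsr1 and Clca3a1 in mouse 1.

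Several of the 6 genes are also made outside lymphatic endothelium, and many markers of other cell types were lowest in mouse 1 as well. Of 32 macrophage, fibroblast, mesothelial and mural markers, 22 had a mean of at least 50. Of these 22, 16 (72.7%) were lowest in mouse 1, against 33.2% of all genes above that floor. The 1.5-fold rule called 14 of the 22 (63.6%), against 13.8% of all genes. Genes at lower levels are called more often, with 23.1% called at a floor of 10 and 7.19% at a floor of 200. Several of the 22 markers had means under 200, such as Csf1r at 139 and Myh11 at 129.7. No share of genes matched for level was taken. The 10 macrophage and leukocyte markers summed to 693, 1037 and 1041 normalized counts in mice 1, 2 and 3. None was at 0, and Csf1r, the receptor of macrophage growth factor, had 104, 143 and 170. Timd4 and Folr2, markers of resident macrophages that also bear LYVE1, had only 7 to 9 and 24 to 32 normalized counts, and mouse 1 alone was the lowest in neither. The macrophage markers Mrc1 (121, 225 and 188) and Cd163 (69, 83 and 157) were higher, and both were lowest in mouse 1. Of the 10 markers, mouse 1 was the lowest for 7. The 7 fibroblast markers summed to 2703, 3229 and 3515, but Dcn (813, 579 and 1007) and Lum (458, 309 and 618) were lowest in mouse 2. Among the 7 mesothelial markers, Msln, Upk3b and Upk1b had between 10 and 33 normalized counts, Lrrn4 had 3, 0 and 4, Krt18 had 21, 18 and 36, and Wt1, which endothelium also makes, had 871, 1055 and 939. Krt19, an epithelial keratin, had 28, 89 and 103 and was the 1 mesothelial marker called. The 8 mural markers summed to 1621, 1923 and 2314, with Myh11, the myosin of smooth muscle, at 31, 118 and 240. Of the 8, mouse 1 was the lowest for 5, whereas the pericyte genes Rgs5 (542, 615 and 505), Kcnj8 (138, 85 and 119) and Abcc9 (383, 301 and 396) were lowest in another mouse. The 5 platelet and megakaryocyte markers were low and did not follow, with Pf4 at 50, 51 and 50, and Gp9 at 5, 2 and 0. The 5 endocardial markers summed to 4241, 3235 and 5924, and 4 of them were lowest in mouse 2, while Nfatc1 (1305, 1386 and 1658) was lowest in mouse 1. The cardiomyocyte markers summed to 20105, 20765 and 23893, and 0 of 10 were called. Per kb the list medians of mice 1, 2 and 3 were 40.9, 65.5 and 61.7 for the 6 lymphatic genes and 19.2, 29.3 and 30.5 for the macrophage list. The part of these other cell types, and of whatever sets mouse 1 apart in Xist and Ddx3y, in the levels of the 6 genes was not tested. Every contrast of mouse 1 with mice 2 and 3 is also a contrast in these sex-linked genes.

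**Figure D4:**
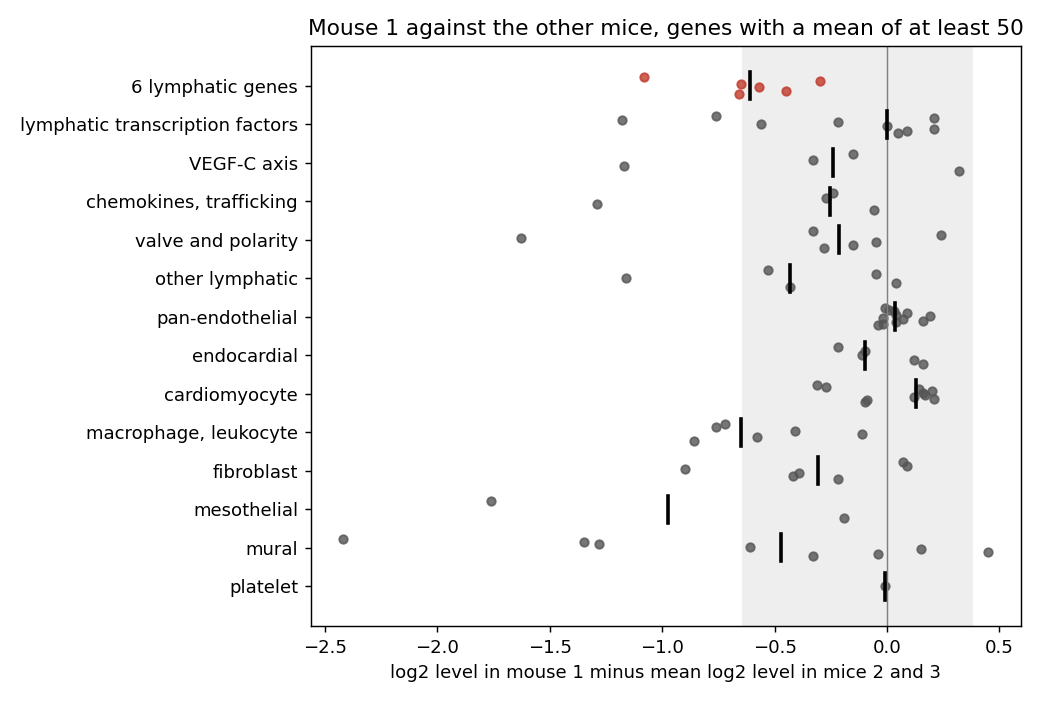
Log2 level in mouse 1 minus the mean log2 level in mice 2 and 3 for genes with a mean of at least 50, 1 point per gene, with black bars at list medians and a grey band from the 5th to the 95th percentile of all genes (-0.64 to 0.38). The 6 lymphatic genes (red) are all below 0 with a median of -0.61, the macrophage list has a median of -0.65, and the pan-endothelial list sits at 0.03.

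By the pattern over mice, the gene of the other lists most like the sum of the 6 was Csf1r, whose log2 values relative to its own mean differed from those of the sum by at most 0.02. Notch3, a receptor of mural cells with 145, 216 and 226 normalized counts, came next with 0.08, then Thy1, a surface glycoprotein found on lymphatic endothelium and other cells, with 484, 633 and 670, at 0.11. They were picked among 93 candidates over only 3 mice, and 1.5% of the 11956 genes above the floor were as near as Thy1. For Csf1r, with a mean of 139, counting alone would give an SD of 11.8. A difference of 0.02 is finer than such counts resolve, so its first place carries little weight.

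Binding partners and relatives of the 6 proteins were read from 2 further lists, in which the 1.5-fold rule called 3 of 7 partners and 1 of 9 homologs above the floor of 50. Mmrn2, the endothelial paralog of Mmrn1, had 1774, 1726 and 1796 normalized counts, a ratio of 1.04 between the highest and the lowest mouse, and at 415 ± 8.41 normalized counts per kb (SD, n = 3) it stood above Mmrn1. Cd44, the other hyaluronan receptor related to Lyve1, had 529, 609 and 726. Among class 3 semaphorins, Sema3f (1507, 1803 and 1724) and Sema3g (1836, 1598 and 1496) were the most abundant per kb, at 494 ± 45.1 and 361 ± 38.4. Sema3a, with 130, 222 and 227, was the 1 homolog called. For the receptors, Nrp1 had 1887, 1779 and 1965 normalized counts and Plxnd1 had 2646, 2723 and 3260. The reelin receptor Vldlr had 645, 658 and 601, the other receptor Lrp8 had 31, 81 and 53, and the adaptor Dab1 was not in the table. Clec1b, which encodes the podoplanin receptor CLEC-2 of platelets, had 11, 23 and 20. Of the hyaluronan synthases that make the ligand of LYVE1, Has3 had 318, 192 and 235, Has1 had 1, 2 and 7, and Has2 was not in the table.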

How the data were processed

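Ribosome-associated RNA of cardiac endothelial cells was sequenced in 3 libraries as single-end reads of 72 bases. Per the methods and the submitters' processing notes, the authors trimmed reads with Trimmomatic 0.39, aligned them with STAR 2.7.11a to mm39, removed duplicates with Picard 3.1.1 as well as multi-mapping, ribosomal and mitochondrial reads, counted exonic reads by strand with featureCounts 2.0.4 and normalized with DESeq2 1.36.0. Removing duplicates compresses the counts of transcripts with many reads per base. The deposited values are a score, that is, counts divided by a size factor and rounded, so no count model was used. Each column matched 1 sample title. Reads per library were estimated from the whole numbers that rounding skips or doubles.

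Levels are the mean and SD over mice. Per-length values used the GENCODE release M39 canonical transcript on GRCm39 (99.4% of identifiers found), a later annotation than the one used for counting. Ratios used a pseudocount of 0.5 and an exact sign-flip permutation test. Exact copies were searched with BLAST 2.17.0. Python 3.11.15, numpy 2.4.6, pandas 2.3.3 and matplotlib 3.10.9 were used, and the procedures were tested on simulated data. Named genes were the 6 members, 15 lists of lymphatic, partner, homolog and cell type marker genes, and the 3 list genes nearest in pattern. One gene of the lymphatic lists is not reported here and was left out of every count. Members and lists were chosen with earlier results of these data known, and the reading of mouse 1 as lowest was added after the values were seen.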

Additional observations from a re-analysis of the deposited data

How the results depend on the processing

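Of 106 alternative values, 103 were unchanged by the set limits and none changed sign. The limit was the SD for levels and 1.5-fold for counts of genes, while for ratios per length only the sign was checked. Much of this was fixed in advance. Leaving out a mouse cannot move the mean of 3 by its SD, reverse a ratio negative in all 3 mice or undo detection met in each mouse. The alternatives covered scaling by trimmed means (30% of log ratios and 5% of levels cut at each end) or equal totals. They also covered the median, exonic length, pseudocounts of 0 and 5, other minimum levels and leaving out each mouse. The count of lymphatic genes varying at least 1.5-fold, 5 of 6, was 1 at a threshold of 2-fold, where 4.57% of all genes were called, and lay between 0, without mouse 1, and 4 when a mouse was left out. Without mouse 3 it was 3. The other ranges with a mouse left out were 2702 to 3387 for the summed level and -3.80 to -3.45 for the median log2 ratio per length to the endothelial markers, which was -3.66 with all mice and -2.88 by exonic length. All 6 genes stayed lowest in mouse 1 under both scalings, a check added after seeing the data. No paired analysis was possible because all 3 libraries belong to 1 group. With 3 mice the exact sign-flip test cannot give a p below 0.25, and counting alone would give SDs of 16.1 (Pdpn) to 28.4 (Lyve1) normalized counts.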
